A study of Mus musculus with 8 samples.

Results

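The BCL2 family decides whether the outer membrane of the mitochondrion is permeabilised and cytochrome c is released. Anti-apoptotic members hold the pore-forming effectors Bax and Bak1 in check, and BH3-only members bind the anti-apoptotic members, the effectors or both and so favour pore formation. In hematopoietic cells that depend on a cytokine, growth factor signaling through JAK2 and STAT5 is known to keep survival genes of this family active, and withdrawal of the cytokine or of glucose is known to shift the balance towards the pro-apoptotic members. The 10 genes described here were chosen by name as members of the family. They are 4 anti-apoptotic genes (Bcl2, Bcl2l1 encoding BCL-XL, Mcl1 and Bcl2a1b encoding an A1 protein), the 2 effectors Bax and Bak1, and 4 BH3-only genes (Bcl2l11 encoding BIM, Bbc3 encoding PUMA, Pmaip1 encoding NOXA, and Bad). They are 10 of the 56748 genes listed, and 9 of them were among the 11818 genes that passed the expression filter of at least 1 FPKM in at least 2 of the 8 libraries. FPKM is the number of fragments on a gene per kilobase of its length and scaled to a total of its library.

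RNA was sequenced from 32D cells, a murine myeloid line that needs interleukin-3 (IL-3) to grow. The cells carried transduced murine Jak2WT or murine Jak2V617F, an activating kinase mutation, and all were kept for 24 h in medium containing IL-3 at 2 ng/ml, glutamine at 1 mM and glucose at 5 mM. In each background, 2 single-cell-derived clones in which CRISPR-Cas9 had disrupted Slc2a1 and Slc2a3, which encode the glucose transporters GLUT1 and GLUT3 (GLUT1/3 dKO), stood against 2 GLUT1/3 WT clones. The clones of each of the 4 groups were numbered 1 and 3. How many transductions stand behind each background is not given in the sources used here, so an effect of Jak2V617F and any other difference between the Jak2WT and Jak2V617F lines cannot be told apart. The p-values measure the spread between clones, at 2 per group. The study describes the clones of each condition as independent, and it lists the same Slc2a1 deletion for the dKO clones of a background. It also reports single-cell dilution of the 32D cells before editing, so the clones of a background may be subclones. The p-values between backgrounds then measure the spread between such clones and not between separately made lines.

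The libraries held 16846011 to 48884329 reads on genes. Slc2a1 was expressed at 44.7 to 64.0 FPKM in the GLUT1/3 WT clones and at 9.17 to 17.3 FPKM in the dKO clones, and Slc2a3 at 91.9 to 198.5 FPKM against 16.0 to 49.5 FPKM. The ranges of the 2 groups of clones did not overlap for either transporter. Edited transcripts can persist, so these levels only partly check the knockout. Jak2 was expressed at 218.2 to 258.4 FPKM in the Jak2WT libraries and 139.4 to 165.4 FPKM in the Jak2V617F libraries, and the values do not separate the transduced from the endogenous murine transcript. Of 10 myeloid progenitor markers, 4 passed the filter, and Kit and Cebpa were listed at 0 in all 8 libraries. Their summed FPKM, most of it from the IL-3 receptor subunit gene Csf2rb, was 196.0 to 220.9 in the Jak2WT GLUT1/3 WT clones, 143.8 to 178.8 in the Jak2WT dKO clones, 165.4 to 168.2 in the Jak2V617F GLUT1/3 WT clones and 80.3 to 81.7 in the Jak2V617F dKO clones. With dKO in Jak2V617F, Csf2rb fell by 1.29 (adjusted p = 0.00126, limma) and Spi1 by 0.59 (adjusted p = 0.0124, limma) on the scale of log2(FPKM + 1), and Prtn3 and Il3ra did not pass the test. Some markers of other lineages moved with the groups. The summed FPKM of 10 erythroid genes was 94.0 to 112.0 in the Jak2WT GLUT1/3 WT clones, 246.3 to 290.6 in the Jak2WT dKO clones, 553.3 to 910.4 in the Jak2V617F GLUT1/3 WT clones and 2582 to 4679 in the Jak2V617F dKO clones. Globin genes made up most of the sum in the Jak2V617F libraries, and not all members moved with it. With dKO in Jak2V617F, Gata1 fell by 0.50 (adjusted p = 0.0246, limma), and Epor, the erythropoietin receptor gene, differed by 0.14 (adjusted p = 0.426, limma). Slc4a1 and Alas2, which mark late erythroid cells, stayed below 1 FPKM in every library. The sum of 6 megakaryocyte genes was 65.1 to 65.7, 89.4 to 94.3, 197.2 to 209.0 and 233.4 to 288.0 FPKM in the same order of groups. Of 6 mast cell and basophil genes, 1 passed the filter, Cpa3, at 50.8 to 100.5 FPKM in the 4 Jak2WT libraries and at most 1.67 FPKM in the 4 Jak2V617F libraries, and the other 5 reached at most 0.351 FPKM. The sum of 6 macrophage and dendritic cell genes was 22.0 to 26.5 FPKM in the Jak2V617F dKO clones and 52.2 to 72.9 FPKM in the other 6 libraries. Only Adgre1 and Cd68 of these passed the filter. With dKO in Jak2V617F, Adgre1 fell by 1.54 (adjusted p = 0.00138, limma) and Cd68 differed by 0.29 (adjusted p = 0.305, limma). For 7 T, B and NK cell genes the sum was at most 0.708 FPKM. The myeloid and other lineage markers that differed move with the same groups as the BCL2 family genes below, and their part in the differences was not tested. In bulk RNA, a change in the number of cells of one kind and a change in RNA per cell cannot be told apart.

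The 4 promoters shown next belong to 4 of the 5 members that were higher in Jak2V617F than in Jak2WT clones among the GLUT1/3 WT cells. They are taken from RefSeq (GRCm38.p6, an earlier build than the mm39 of the expression table), run 5′ to 3′ on the strand of the gene from 250 bases before to 50 bases after a transcription start, and carry in capitals the matches on either strand to 4 motifs, namely TTCNNNGAA of STAT factors, AGATAA of GATA factors, GTAAACA of FOXO factors and ACGTG, the core of the hypoxia response element and part of the E-box CACGTG. Bcl2l11 has 2 windows in the table and Bcl2l1 and Bbc3 have 3 each, and one with a match is shown.
Bcl2l1 (chr2:152828440-152828739, reverse strand): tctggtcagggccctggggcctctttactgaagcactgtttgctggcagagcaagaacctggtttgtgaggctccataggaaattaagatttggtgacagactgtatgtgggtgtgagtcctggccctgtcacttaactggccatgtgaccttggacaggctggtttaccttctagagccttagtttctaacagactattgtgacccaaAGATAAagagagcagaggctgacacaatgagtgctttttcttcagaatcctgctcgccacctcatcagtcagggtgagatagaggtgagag
Bcl2l11 (chr2:128125788-128126087, forward strand): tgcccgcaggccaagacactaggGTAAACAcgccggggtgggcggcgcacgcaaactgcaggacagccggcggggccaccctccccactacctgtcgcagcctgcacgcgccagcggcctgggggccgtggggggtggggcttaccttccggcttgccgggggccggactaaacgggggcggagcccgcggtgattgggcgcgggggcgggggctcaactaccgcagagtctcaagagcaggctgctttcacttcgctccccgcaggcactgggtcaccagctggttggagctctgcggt
Bbc3 (chr7:16310011-16310310, forward strand): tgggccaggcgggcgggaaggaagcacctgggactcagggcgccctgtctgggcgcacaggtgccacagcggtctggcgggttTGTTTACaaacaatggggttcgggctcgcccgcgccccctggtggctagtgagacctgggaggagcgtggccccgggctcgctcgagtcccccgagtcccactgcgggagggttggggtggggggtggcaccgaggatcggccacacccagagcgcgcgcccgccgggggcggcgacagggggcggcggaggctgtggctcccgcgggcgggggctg
Bax (chr7:45466849-45467148, reverse strand): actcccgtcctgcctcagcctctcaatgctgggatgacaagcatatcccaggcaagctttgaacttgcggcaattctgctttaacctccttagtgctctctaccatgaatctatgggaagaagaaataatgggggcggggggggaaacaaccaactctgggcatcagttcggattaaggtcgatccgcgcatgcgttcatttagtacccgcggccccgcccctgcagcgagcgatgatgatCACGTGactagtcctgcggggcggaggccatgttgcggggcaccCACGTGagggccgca
The Bcl2l1 window holds AGATAA, beginning 41 bases before the start. The windows of Bcl2l11 and Bbc3 each hold 1 match to GTAAACA, on opposite strands. The Bax window holds CACGTG at 2 places, and each counts as a match on both strands. A further window of Bbc3, not shown, also holds CACGTG and has no match to GTAAACA. The remaining windows of Bcl2l1, Bcl2l11 and Bbc3 hold no match to any of the motifs. Over all 32851 promoter windows of this length, TTCNNNGAA occurred in 8.3%, ACGTG in 19.6%, AGATAA in 11.2% and GTAAACA in 3.65%. Among the 15 windows of the 9 members with a promoter in the table, the same motifs were found in 0, 2, 1 and 2 windows. The window of Mcl1, the other such member, held none of them. A match describes the letters alone and says nothing about binding.

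Among the anti-apoptotic genes, Bcl2 was lower and Bcl2l1 higher in Jak2V617F in both GLUT1/3 states, whereas Mcl1 passed the test between backgrounds among the GLUT1/3 WT clones and missed it among the dKO clones. Bcl2, which encodes the founding member of the family, was expressed at 75.0 and 72.9 FPKM in clones 1 and 3 of the Jak2WT GLUT1/3 WT group and at 89.6 and 77.8 FPKM in those of the Jak2WT dKO group. In the Jak2V617F clones it was 21.4 and 17.1 FPKM with intact GLUT1/3 and 10.5 and 18.6 FPKM with dKO. Every Jak2V617F clone was below every Jak2WT clone, with no overlap. Bcl2 (chromosome 1, 106465908 to 106642004, reverse strand in mm39, like the positions that follow) fell by 1.90 ± 0.23 (SE, n = 2 clones per group) on the scale of log2(FPKM + 1) from Jak2WT to Jak2V617F among the GLUT1/3 WT clones, with an adjusted p of 0.00189 by limma over all genes tested. It fell by 2.49 ± 0.23, with an adjusted p of 0.00106, among the dKO clones.

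Bcl2l1 (chromosome 2, 152622588 to 152673648, reverse strand), whose BCL-XL product protects erythroid cells and platelets, ran the other way. Its levels were 16.2 and 19.5 FPKM in the Jak2WT GLUT1/3 WT clones, 24.5 and 22.4 FPKM in the Jak2WT dKO clones, 48.0 and 39.7 FPKM in the Jak2V617F GLUT1/3 WT clones and 69.6 and 47.8 FPKM in the Jak2V617F dKO clones. The lowest Jak2V617F clone was above the highest Jak2WT clone. Bcl2l1 rose by 1.25 ± 0.18 with Jak2V617F among the GLUT1/3 WT clones (adjusted p = 0.00340, limma) and by 1.26 ± 0.18 among the dKO clones (adjusted p = 0.00529, limma). Its rise stands beside the erythroid and megakaryocyte marker sums given above, which were also highest in Jak2V617F clones.

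The ratio of Bcl2 to Bcl2l1, both in FPKM, was 4.61 and 3.74 in the GLUT1/3 WT clones of Jak2WT and 3.66 and 3.47 in the Jak2WT dKO clones. It was 0.446 and 0.430 in the Jak2V617F GLUT1/3 WT clones and 0.150 and 0.390 in the Jak2V617F dKO clones. Bcl2 transcripts thus outnumbered Bcl2l1 transcripts per length in all 4 Jak2WT libraries, and the order was inverted in all 4 Jak2V617F libraries. The summed FPKM of the 4 anti-apoptotic genes differed far less, at 166.5 to 203.3 in the Jak2WT libraries and 152.7 to 174.9 in the Jak2V617F libraries, ranges that overlapped. Bcl2 made up 42.4% to 45.0% of that sum in the Jak2WT libraries and 6.71% to 12.2% in the Jak2V617F libraries, while Bcl2l1 made up 9.76% to 12.2% and 25.2% to 44.6%.

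**Figure D1:**
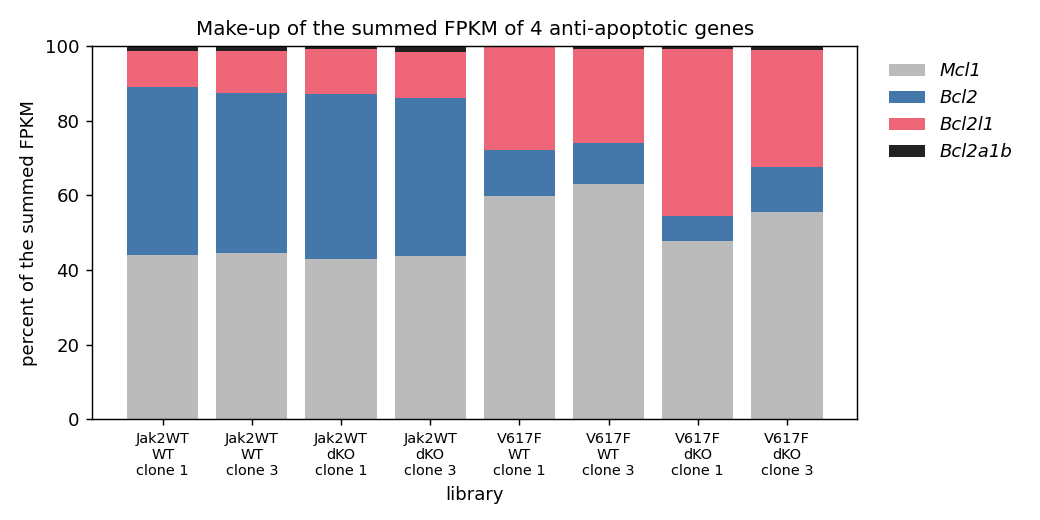
Share of the summed FPKM of 4 anti-apoptotic genes that each gene contributes (percent, vertical axis) in each of the 8 libraries (horizontal axis). Bcl2 takes 42.4% to 45.0% in the Jak2WT libraries and at most 12.2% in the Jak2V617F libraries, where Bcl2l1 takes 25.2% or more.

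Mcl1 (chromosome 3, 95566099 to 95570487, forward strand), which encodes a short-lived anti-apoptotic protein, made up 43.0% to 63.1% of the same sum. It was expressed at 73.1 and 75.7 FPKM in the Jak2WT GLUT1/3 WT clones, 87.3 and 80.3 FPKM in the Jak2WT dKO clones, 104.8 and 99.1 FPKM in the Jak2V617F GLUT1/3 WT clones and 74.6 and 84.7 FPKM in the Jak2V617F dKO clones. The Jak2V617F GLUT1/3 WT clones were above all others, and the range of the Jak2V617F dKO clones overlapped those of both Jak2WT groups. Mcl1 rose by 0.45 ± 0.09 with Jak2V617F among the GLUT1/3 WT clones (adjusted p = 0.0109, limma). The difference among the dKO clones was -0.08 ± 0.09, with a 95% interval of -0.29 to 0.14.

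Bcl2a1b (chromosome 9, 89081262 to 89089880, forward strand) was the least expressed anti-apoptotic gene, with 11 to 121 reads per library. Its levels were 2.13 and 2.19 FPKM in the Jak2WT GLUT1/3 WT clones, 1.84 and 3.01 FPKM in the Jak2WT dKO clones, 0.629 and 1.31 FPKM in the Jak2V617F GLUT1/3 WT clones and 1.37 and 1.65 FPKM in the Jak2V617F dKO clones. It fell by 0.70 ± 0.22 with Jak2V617F among the GLUT1/3 WT clones (adjusted p = 0.0465, limma). The pseudocount of 1 shrinks this value, which was -1.15 with a pseudocount of 0.1 (adjusted p = 0.0449, limma) and -1.27 with voom on the recovered reads (adjusted p = 0.0759). The mouse has several nearly identical A1 genes, and the coding sequences of Bcl2a1b and Bcl2a1a, both 519 bases long, are 97.9% identical, those of Bcl2a1b and Bcl2a1d 98.8%. The first 90 coding bases, in which 6 of the 12 positions that differ among the 3 genes lie, are shown from the GENCODE transcripts of GRCm39 with those positions in capitals.
Bcl2a1a: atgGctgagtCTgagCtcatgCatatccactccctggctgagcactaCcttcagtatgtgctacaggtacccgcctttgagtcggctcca
Bcl2a1b: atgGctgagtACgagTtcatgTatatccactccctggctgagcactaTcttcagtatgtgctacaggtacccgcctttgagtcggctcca
Bcl2a1d: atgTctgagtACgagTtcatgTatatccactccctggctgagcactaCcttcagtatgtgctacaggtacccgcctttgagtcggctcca
Of all stretches of 150 bases, the read length, in the Bcl2a1b transcript, 14.3% also occur in another A1 transcript. How the counting treated reads that fit several genes is not given in the sources used here, so the values of Bcl2a1b are uncertain. Bcl2a1a was at 0.246 to 3.22 FPKM and Bcl2a1d at 0.333 to 2.05 FPKM.

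**Figure D2:**
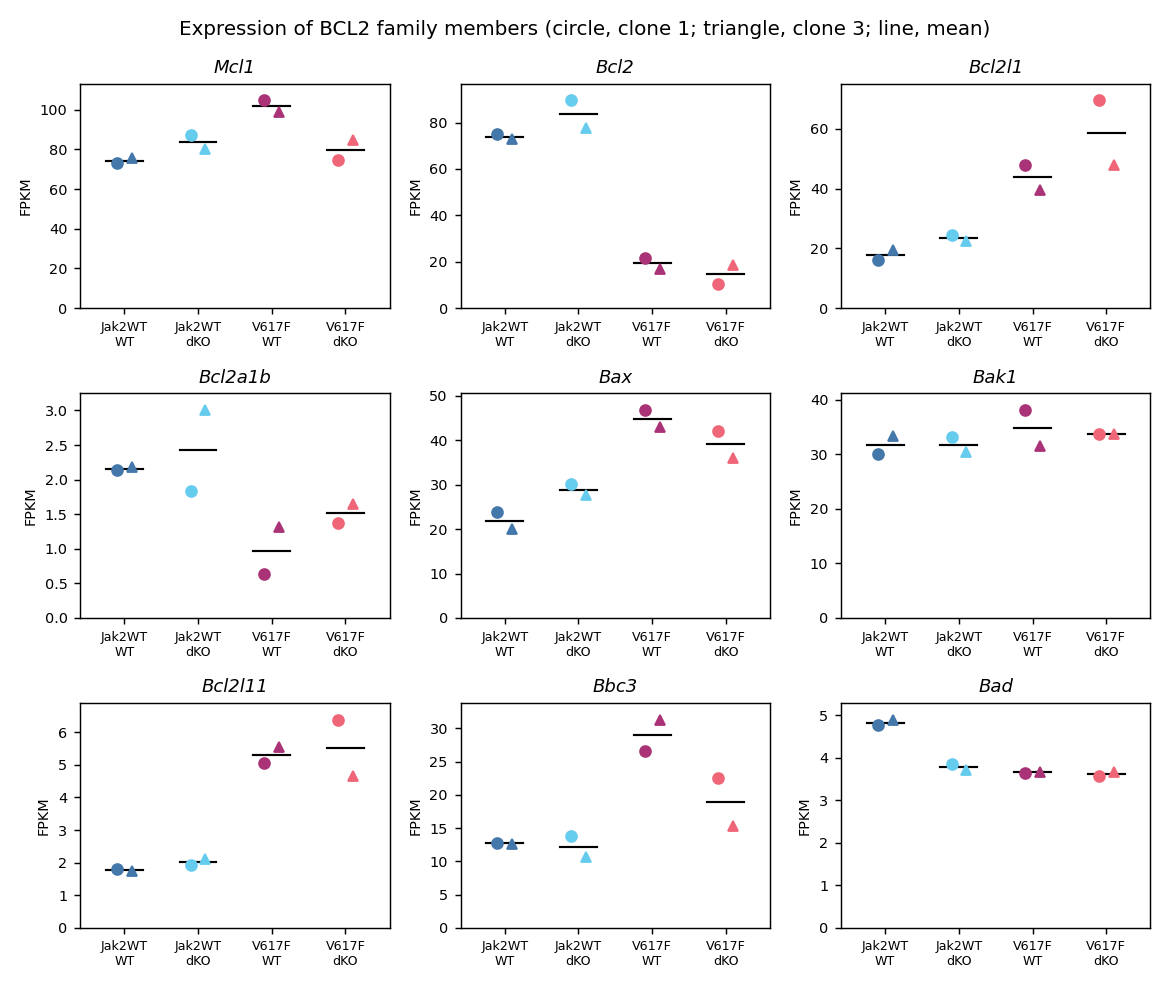
Expression (FPKM, vertical axes from 0) of the 9 BCL2 family members that passed the filter, in 4 groups of 2 clones (circle, clone 1; triangle, clone 3; line, mean). Bcl2 is at 72.9 FPKM or more in the Jak2WT clones and at most 21.4 FPKM in the Jak2V617F clones, and Bak1 stays between 30.0 and 38.1 FPKM.

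Of the 2 effectors, which open the mitochondrial outer membrane, one followed the background. Bax (chromosome 7, 45111121 to 45116322, reverse strand) was expressed at 23.8 and 19.9 FPKM in the Jak2WT GLUT1/3 WT clones, 30.2 and 27.6 FPKM in the Jak2WT dKO clones, 46.8 and 43.0 FPKM in the Jak2V617F GLUT1/3 WT clones and 42.2 and 36.1 FPKM in the Jak2V617F dKO clones. No 2 groups overlapped, and the Jak2V617F clones were the higher ones. Bax rose by 1.01 ± 0.12 with Jak2V617F among the GLUT1/3 WT clones (adjusted p = 0.00157, limma) and by 0.42 ± 0.12 among the dKO clones (adjusted p = 0.0495, limma). The second call lay at the threshold, was held by 7 of 18 alternative settings, and without a single library it was held only when Jak2V617F dKO clone 3 was left out.

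Bak1 (chromosome 17, 27238784 to 27247983, reverse strand) ranged from 30.0 to 38.1 FPKM over the 8 libraries and passed the threshold in none of the 5 comparisons. Its values were 30.0 and 33.4, 33.1 and 30.4, 38.1 and 31.5, and 33.7 and 33.8 FPKM in the order of groups used above. Its difference between backgrounds among the GLUT1/3 WT clones was 0.13, with a 95% interval of -0.13 to 0.38. Under at least 1 other scaling of the libraries, the sign of its difference turned in each comparison except that of the backgrounds among the dKO clones.

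The BH3-only genes behaved unevenly. Bcl2l11 (chromosome 2, 127967958 to 128004467, forward strand), whose BIM product is induced on cytokine withdrawal, was expressed at 1.81 and 1.75 FPKM in the Jak2WT GLUT1/3 WT clones, 1.92 and 2.13 FPKM in the Jak2WT dKO clones, 5.06 and 5.56 FPKM in the Jak2V617F GLUT1/3 WT clones and 6.38 and 4.66 FPKM in the Jak2V617F dKO clones. The 2 backgrounds did not overlap. It rose by 1.18 ± 0.14 with Jak2V617F among the GLUT1/3 WT clones (adjusted p = 0.00155, limma) and by 1.10 ± 0.14 among the dKO clones (adjusted p = 0.00296, limma). Since the pseudocount of 1 shrinks changes of low genes, the ratio of mean FPKM was larger, at 2.99 and 2.73.

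Bbc3 (chromosome 7, 16042318 to 16052130, forward strand), a p53 and FOXO target whose PUMA product binds all anti-apoptotic members, was expressed at 12.8 and 12.7 FPKM in the GLUT1/3 WT clones of Jak2WT and at 13.8 and 10.7 FPKM in the Jak2WT dKO clones. In the Jak2V617F background it was 26.6 and 31.3 FPKM with intact GLUT1/3 and 22.5 and 15.3 FPKM with dKO. Both Jak2V617F groups lay above both Jak2WT groups. It rose by 1.12 ± 0.19 with Jak2V617F among the GLUT1/3 WT clones (adjusted p = 0.00518, limma). With dKO in both backgrounds the difference was 0.58 ± 0.19 with an adjusted p of 0.0776 (limma), which did not pass the threshold. In fits that left out a library this difference ran from 0.31 to 0.84, and 2 of 18 alternative settings passed.

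Bad (chromosome 19, 6919229 to 6929267, forward strand), whose product is inactivated by survival kinases, was expressed at 4.77 and 4.89 FPKM in the GLUT1/3 WT clones of Jak2WT and at 3.58 to 3.86 FPKM in the 6 other libraries. It fell by 0.32 ± 0.08 with Jak2V617F among the GLUT1/3 WT clones (adjusted p = 0.0206, limma). Its difference among the dKO clones was -0.05, with a 95% interval of -0.24 to 0.14.

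Pmaip1, on chromosome 18, was listed at 0 in all 8 libraries. A count of 0 allows up to 3 reads, or 0.0223 to 0.0633 FPKM depending on the library, which covers counting error only. All 28 genes listed between its neighbours Lman1 and Gnal, a stretch of 1066 kb with 3 protein-coding genes (Ccbe1, Pmaip1 and Mc4r), were at 0 in every library. Lman1 was expressed at 14.9 to 28.3 FPKM, and Gnal reached at most 0.197 FPKM. Whether these zeros belong to the cell line or to the deposited table was not worked out, so the limit in FPKM holds only if reads on Pmaip1 were counted.

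Counted together, 5 of the 9 members tested were higher and 3 were lower in Jak2V617F than in Jak2WT clones among the GLUT1/3 WT cells, where 15.3% of all genes tested were called higher and 14.9% lower. The genes called higher were Bcl2l1, Mcl1, Bax, Bcl2l11 and Bbc3, and those called lower were Bcl2, Bcl2a1b and Bad. The median log2 difference of the 9 members was 0.45, against 0.01 over all genes. Among the dKO clones, 3 members were higher (Bcl2l1, Bax and Bcl2l11) and 1 was lower (Bcl2), against 7.12% and 9.96% of all genes, and the median was 0.09 against -0.02. The calls on Bcl2, Bcl2l1 and Bcl2l11 in both comparisons, and on Bax and Bbc3 among the GLUT1/3 WT clones, were held in all 18 alternative settings. The calls on Mcl1, Bcl2a1b and Bad among the GLUT1/3 WT clones were lost when single libraries were left out. For Mcl1 these were Jak2WT GLUT1/3 WT clone 1, Jak2WT GLUT1/3 WT clone 3 and Jak2V617F GLUT1/3 WT clone 1, with adjusted p up to 0.0714 (limma). For Bad they were any of the 4 clones compared, with adjusted p up to 0.125 (limma). For Bcl2a1b they were the same 3 clones as for Mcl1 and either Jak2V617F dKO clone, with adjusted p up to 0.207 (limma), and the difference was -0.45 without Jak2V617F GLUT1/3 WT clone 1.

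**Figure D3:**
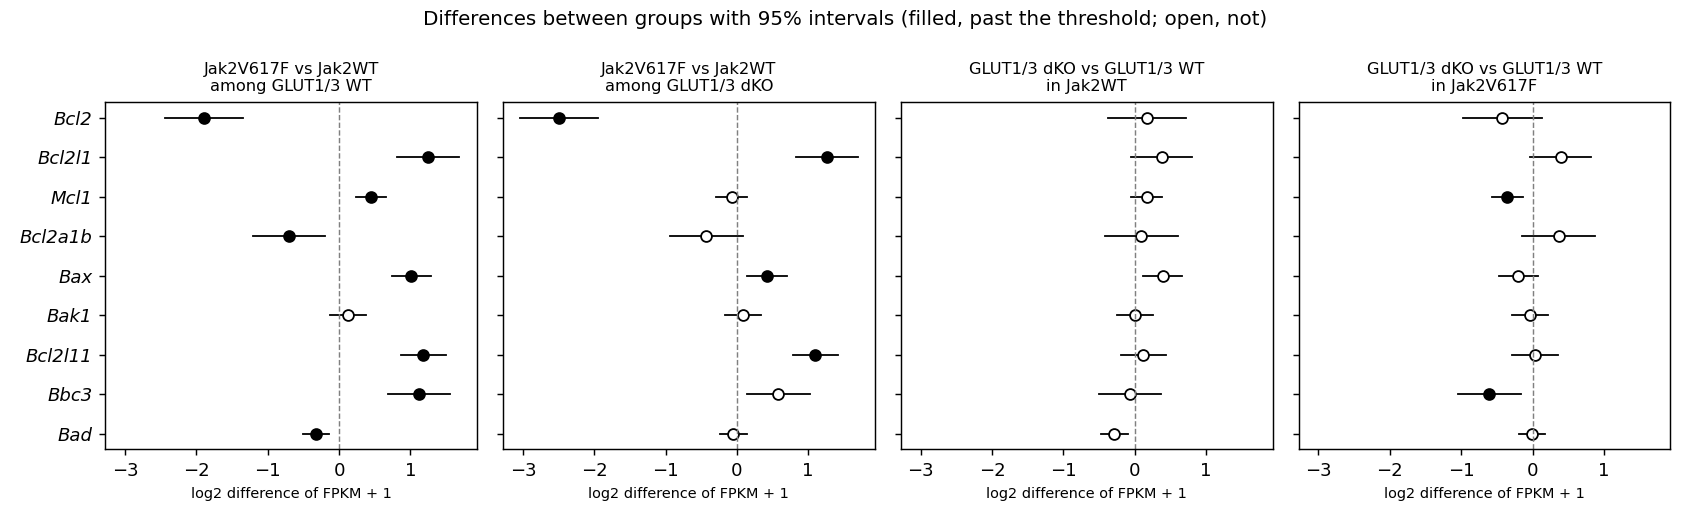
Differences of log2(FPKM + 1) between groups (horizontal axes) for the 9 members tested (vertical axis), with 95% intervals from limma. Filled points passed the threshold, which 8 members did for Jak2V617F against Jak2WT in GLUT1/3 WT clones and 2 did for dKO against GLUT1/3 WT in Jak2V617F.

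The second question was whether loss of glucose transport altered the family. In the Jak2WT background none of the 9 members passed the threshold in limma, with 7.62% of all genes tested called higher and 6.06% called lower. At an unadjusted p under 0.05, 1 member was higher and 1 lower. These were Bax, with a difference of 0.39 ± 0.12 and an adjusted p of 0.0671 (limma), and Bad, with -0.28 ± 0.08 and an adjusted p of 0.0567 (limma). Both clones of the dKO group lay outside both GLUT1/3 WT clones for each of the pair. Bad was called lower with voom on the recovered reads (adjusted p = 0.0462) and with either other scaling of the libraries, and the adjusted p over its 18 alternatives ran from 0.0280 to 0.241. Bcl2l1 differed by 0.38, with a 95% interval of -0.06 to 0.81, Bcl2 by 0.17 (-0.38 to 0.72) and Mcl1 by 0.17 (-0.05 to 0.38).

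In the Jak2V617F background 2 members fell with dKO and 0 rose, where 16.2% of all genes tested were called lower and 13.7% higher. Mcl1 fell by 0.36 ± 0.09, from 104.8 and 99.1 FPKM to 74.6 and 84.7 FPKM (adjusted p = 0.0253, limma). Bbc3 fell by 0.61 ± 0.19, from 26.6 and 31.3 FPKM to 22.5 and 15.3 FPKM (adjusted p = 0.0467, limma). One member of each side of the family was thus lower, the anti-apoptotic Mcl1 and the BH3-only Bbc3. The call on Mcl1 was held in 11 of 18 alternative settings and that on Bbc3 in 5. Mcl1 was no longer called without either Jak2WT GLUT1/3 WT clone, either Jak2V617F GLUT1/3 WT clone or Jak2V617F dKO clone 1, with adjusted p up to 0.103 (limma). Bbc3 was called only without Jak2V617F dKO clone 1 and in no other fit that left out a library, with adjusted p up to 0.177 (limma), and its difference was -0.34 without Jak2V617F dKO clone 3.

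The 2 Jak2V617F dKO clones differed from each other in several members. Clone 1 had the lowest Bcl2 of all libraries, at 10.5 FPKM, and the highest Bcl2l1 and Bcl2l11, at 69.6 and 6.38 FPKM. Clone 3, at 18.6, 47.8 and 4.66 FPKM, lay within the range of the Jak2V617F GLUT1/3 WT clones for Bcl2 and Bcl2l1 and just below it for Bcl2l11. The same clone 1 had the higher summed erythroid markers of the pair. The difference of dKO in Jak2V617F was therefore -0.42 for Bcl2, with a 95% interval of -0.97 to 0.13, and 0.39 for Bcl2l1, with an interval of -0.04 to 0.83, and neither passed the threshold. Without clone 3, Bcl2 was called lower (-0.81, adjusted p = 0.0139, limma) and Bcl2l1 higher (0.66, adjusted p = 0.0287, limma), whereas without clone 1 the adjusted p was 0.895 and 0.593. With voom on the recovered reads and both clones, Bcl2l1 was also called higher (0.50, adjusted p = 0.0311).

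The effect of dKO itself was compared between the backgrounds by the interaction term. Mcl1 was the single member past the threshold, with a change in Jak2V617F that was lower than that in Jak2WT by 0.52 ± 0.13 (adjusted p = 0.0462, limma), against 5.91% of all genes called lower and 4.72% called higher. Mcl1 was held in 5 of 17 alternatives, and without a single library it was held only when Jak2V617F dKO clone 3 was left out, with adjusted p up to 0.162 (limma). Without that clone Bcl2 also passed, at -0.98 and an adjusted p of 0.0335 (limma). For Bax the interaction was -0.59 ± 0.17 (adjusted p = 0.0642, limma), and for Bcl2l1 it was 0.02, with a 95% interval of -0.60 to 0.63. The comparisons share libraries, since each group enters more than one, so their counts are not independent of each other.

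Scaling all libraries to the same FPKM total moved the median of all genes from 0.01 to -0.12 for Jak2V617F against Jak2WT in GLUT1/3 WT clones and from -0.04 to 0.12 for the interaction. With that scaling, 1223 genes were called higher and 2930 lower in the former, against 1812 and 1765. For dKO the counts were 706 and 1378 in Jak2WT, against 901 and 716, and 2192 and 1452 in Jak2V617F, against 1614 and 1919. For the interaction they were 1177 and 393, against 558 and 698.

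The pro-apoptotic members described so far can also be read as sums per library. Bcl2l11, Bbc3 and Bad together came to 16.5 to 19.6 FPKM in the Jak2WT libraries and 23.7 to 40.5 FPKM in the Jak2V617F libraries, most of it Bbc3. Relative to the summed FPKM of the anti-apoptotic genes this was 8.99% to 11.6% and 15.5% to 25.8%. Bax and Bak1 together came to 53.4 to 63.3 FPKM and 69.8 to 84.9 FPKM. The ranges of the backgrounds did not overlap for any of these 3 measures. Bid, a further BH3-only gene taken up below, is not in the sum. It was at 28.7 to 44.6 FPKM in the Jak2WT libraries and 40.0 to 49.7 FPKM in the Jak2V617F libraries, ranges that overlapped. The separation by the BH3-only sum thus holds only for the members summed here.

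Among 16 other genes of the family, 8 passed the filter. Bik, Bok, Bmf, Hrk and Bcl2l10, which encode further BH3-only or multidomain proteins, were below 1 FPKM in every library, and Hrk and Bcl2l10 were listed at 0 throughout. Bnip3 and Bnip3l, hypoxia-inducible genes whose products act in mitophagy, fell with dKO in both backgrounds. Bnip3 was expressed at 235.6 and 223.2 FPKM in the GLUT1/3 WT clones of Jak2WT and at 92.8 and 69.7 FPKM in the Jak2WT dKO clones. In the Jak2V617F background it was 207.9 and 189.5 FPKM with intact GLUT1/3 and 39.0 and 30.3 FPKM with dKO. All 4 dKO clones were below all 4 GLUT1/3 WT clones.

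With dKO, Bnip3 fell by 1.50 ± 0.16 in Jak2WT (adjusted p = 0.00439, limma) and by 2.49 ± 0.16 in Jak2V617F (adjusted p = 3.60e-04, limma), and the changes differed by -0.99 ± 0.23 (adjusted p = 0.0379, limma). Bnip3l fell by 0.45 ± 0.10 in Jak2WT (adjusted p = 0.0297, limma) and by 0.82 ± 0.10 in Jak2V617F (adjusted p = 0.00165, limma). Bcl2l2, which encodes the anti-apoptotic BCL-W, went from 9.95 and 10.1 FPKM to 4.76 and 5.46 FPKM in Jak2V617F. It fell by 0.85 ± 0.09 there (adjusted p = 8.60e-04, limma), and the changes differed between backgrounds by -0.74 ± 0.12 (adjusted p = 0.0174, limma). Bid, a BH3-only gene whose product links death receptors to mitochondria, rose by 0.51 ± 0.12 with dKO in Jak2WT (adjusted p = 0.0350, limma) and by 0.55 ± 0.12 with Jak2V617F among the GLUT1/3 WT clones (adjusted p = 0.0139, limma). In all, 1 of the 8 was higher and 2 were lower with dKO in Jak2WT, 0 and 3 with dKO in Jak2V617F, 2 and 0 with Jak2V617F among the GLUT1/3 WT clones, and 0 and 2 among the dKO clones. Over all genes tested, the shares called higher and lower were 7.62% and 6.06%, 13.7% and 16.2%, 15.3% and 14.9%, and 7.12% and 9.96% in the same order. These shares also apply to the lists that follow.

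**Figure D4:**
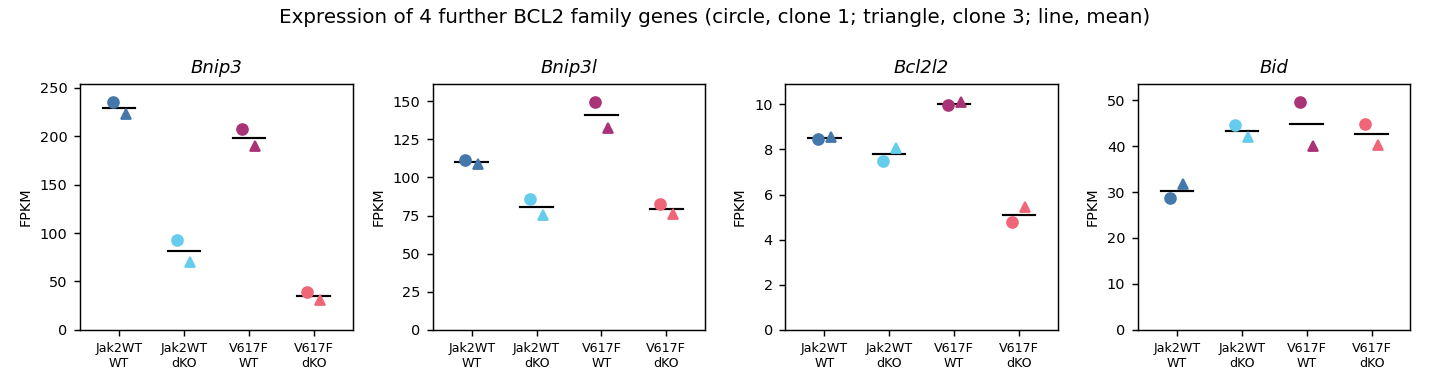
Expression (FPKM, vertical axes from 0) of 4 further BCL2 family genes in 4 groups of 2 clones (circle, clone 1; triangle, clone 3; line, mean). Bnip3 is at 189.5 FPKM or more in the GLUT1/3 WT clones and at most 92.8 FPKM in the dKO clones of both backgrounds.

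Downstream of the mitochondrion, 15 of 16 genes of the apoptosome, the caspases and the inhibitors of apoptosis (IAPs) were tested. With Jak2V617F among the GLUT1/3 WT clones, 2 were higher and 6 lower, against 15.3% and 14.9% of all genes, with a list median of -0.27 against 0.01. Cycs, which encodes cytochrome c, fell by 0.62 ± 0.10, and Birc5, the mitotic IAP survivin, by 0.63 ± 0.09. Htra2, which encodes a mitochondrial protease that counteracts IAPs, rose by 0.61 ± 0.12. Among the dKO clones 1 was higher, Apaf1 of the apoptosome by 0.61, and 3 were lower. With dKO, 2 were higher and 0 lower in Jak2WT, where Xiap rose by 0.29. In Jak2V617F 4 were higher and 1 was lower. There Birc5 rose by 0.80, from 17.7 and 17.6 FPKM to 30.3 and 32.7 FPKM, and Cycs by 0.52, and Birc2 fell by 0.45. The interaction passed for 1 gene, Birc5, at 0.93 (adjusted p = 0.0121, limma).

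All 9 mitochondrial partners and membrane-shaping genes were tested. With dKO in Jak2V617F, 2 were higher and 4 lower, against 13.7% and 16.2% of all genes. Vdac1, an outer membrane channel, fell by 0.81, Mfn1 of mitochondrial fusion by 0.74, Vdac2, which binds Bak1 protein, by 0.47 and Mff, a fission receptor, by 0.34. In Jak2WT the single call was on Oma1, a stress-activated protease of the inner membrane, which rose by 0.45. Vdac2 alone passed the interaction, at -0.68 (adjusted p = 0.0266, limma). With Jak2V617F, 2 were higher and 2 lower among the GLUT1/3 WT clones, and 0 were called among the dKO clones in limma, where 1 was higher and 2 lower at an unadjusted p under 0.05.

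Of 16 transcription factors known to regulate family members, 14 were tested. With Jak2V617F among the GLUT1/3 WT clones, 5 were higher and 3 lower. Gata1, the erythroid and megakaryocyte factor, rose by 0.81, Stat3 by 0.80, the stress factor Atf4 by 0.72 and Myc by 0.60. Among the dKO clones 3 were higher and 3 lower, where Nfkb1 of NF-κB fell by 1.94 and the cell cycle factor E2f1 rose by 0.74. With dKO in Jak2WT 1 was higher, Atf4 by 0.30, and 1 was lower, Foxo3, which activates Bcl2l11 and Bbc3, by 0.54. With dKO in Jak2V617F 3 were higher and 9 lower, against 13.7% and 16.2% of all genes, with a list median of -0.46 against -0.02. Nfkb1 fell by 1.28, from 12.0 and 11.5 FPKM to 2.54 and 6.84 FPKM, and Atf4 by 0.69, whereas E2f1 rose by 1.07 and Trp53 by 0.68. Foxo3 was also lower with dKO in this background, by 0.39, and its interaction was 0.15 (adjusted p = 0.370, limma). The interaction passed for Atf4 (-0.98), Myc (-0.72), Hif1a (-0.54) and E2f1 (1.17).

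Of 20 kinases, ligases and deubiquitinases known to act on BCL2 family proteins, 18 were tested. Pim1 and Pim2, which encode kinases that phosphorylate Bad protein and are targets of STAT5, were higher in the Jak2V617F GLUT1/3 WT clones, and Pim3 stayed below 1 FPKM in every library and was not tested. Pim1 was at 140.6 and 127.1 FPKM in the Jak2WT GLUT1/3 WT clones, 223.1 and 213.6 FPKM in the Jak2V617F GLUT1/3 WT clones and 170.9 and 150.4 FPKM in the Jak2V617F dKO clones. It rose by 0.70 ± 0.09 with Jak2V617F and fell by 0.44 ± 0.09 with dKO in that background, and Pim2 rose by 1.26 ± 0.30 and fell by 0.95 ± 0.30. In the first of these comparisons 3 of the list were higher and 3 lower, close to the 15.3% and 14.9% of all genes, and in the second 2 were higher and 7 lower, against 13.7% and 16.2%. With dKO in Jak2WT 0 were higher and 2 lower, Mapk3 by 0.49 and Gsk3b by 0.29. Among the dKO clones 1 was higher and 2 were lower with Jak2V617F, among them Fbxw7, a ubiquitin ligase for Mcl1 protein, at -0.57. The interaction passed for Pim1 (-0.61) and Gsk3b (0.57).

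For the 4 members with the largest range of group means, the genes with the most similar profile over the 8 libraries were looked up by Pearson's r of log2(FPKM + 1). The libraries are 4 pairs of clones, so these values describe group patterns. For Bcl2 they were Cd81 (r = 0.996), Eef2k (0.994) and Pik3cd (0.993), and for Bcl2l1 they were Dlgap4 (0.993), Snx9 (0.992) and Cabyr (0.990). Bcl2l11 was nearest to Itgb3 (0.994), which is expressed in megakaryocytes, Syt16 (0.994) and Dcaf6 (0.994). Bbc3 was nearest to Ppp1r15b (0.983), Dennd4a (0.982) and Golga5 (0.978).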

How the data were processed

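RNA of 8 clones of 32D cells was measured by poly-A RNA sequencing in paired reads of 150 bases. According to the methods, the authors cleaned reads with fastp 1.0.1, aligned them to mm39 with HISAT2 2.2.1 and counted reads per gene with featureCounts 2.0.6. The deposited values are FPKM, and their library total, the annotation version and the strand setting are not given in the sources used here. Multiplied by gene length, 100% of the FPKM values were whole steps of their library within 0.01 of a step, which gave back the reads. All 8 columns were used.

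Genes at 1 FPKM or more in at least 2 libraries (11818) entered a limma fit (version 3.58.1, R 4.3.3) of log2(FPKM + 1), with 1 mean for each of the 4 groups and the trend option. It had 4 residual degrees of freedom and 3.34 from the prior. In each of 5 comparisons, the Benjamini-Hochberg adjustment covered every gene tested, with a threshold of 0.05. Intervals cover 95%. Alternatives were a pseudocount of 0.1, other filters, other variance options, 2 other scalings, voom on reads, only the compared groups, the clone number as a replicate block, and each library left out. Every member was named, and from each other list at most 4 genes per comparison, those with the largest change past the threshold. Some genes that this rule covers are not reported here. Members and lists were chosen with earlier results of these data known. Figures were drawn with matplotlib 3.10.9 in Python 3.11.15.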

Additional observations from a re-analysis of the deposited data

Results flagged for a closer look

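The effect of GLUT1/3 dKO on Mcl1 differed between the backgrounds by the interaction term, at -0.52 ± 0.13 on the scale of log2(FPKM + 1) (adjusted p = 0.0462, limma). Both dKO clones were above both GLUT1/3 WT clones in Jak2WT and below them in Jak2V617F. The adjusted p over 17 alternatives ran from 0.0352 to 0.162.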

How the results depend on the processing

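Fits that left out one library gave 0 called members for dKO in Jak2WT, 0 to 3 for dKO in Jak2V617F and 5 to 8 for Jak2V617F among the GLUT1/3 WT clones, against 0, 2 and 8. For the interaction they gave 0 to 2, against 1. For dKO in Jak2WT, 1 member was called with both other scalings and with voom. For dKO in Jak2V617F, 1 was called with a pseudocount of 0.1, without the variance trend and with both other scalings, and 0 without a filter and in the fit of only the groups compared. For the interaction 0 were called without a filter, without the trend, with the same FPKM total and with voom. Of the member differences recomputed, 31 turned in sign, 18 of them in fits without a library, and none of these was a call.

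With the same FPKM total, Bak1 turned to -0.093 for dKO in Jak2WT, 0.053 for dKO in Jak2V617F, -0.023 for Jak2V617F among the GLUT1/3 WT clones and 0.15 for the interaction, Bad to 0.063 for dKO in Jak2V617F, and Bcl2l11 to 0.058 for the interaction. With median ratio scaling, Bak1 turned to -0.0059 for dKO in Jak2WT and Bad to 0.015 for dKO in Jak2V617F. With voom, Bak1 turned to -0.053 and 0.062 for dKO in Jak2WT and Jak2V617F and to 0.11 for the interaction, Bad to 0.075 for dKO in Jak2V617F and Bcl2l11 to 0.024 for the interaction. Without single libraries, dKO in Jak2WT gave -0.072 to 0.080 for Bak1, -0.15 to 0.34 for Bcl2a1b and -0.24 to 0.11 for Bbc3. For dKO in Jak2V617F they gave -0.17 to 0.096 for Bak1, -0.16 to 0.23 for Bcl2l11 and -0.025 to 0.0058 for Bad. Between backgrounds they gave -0.0060 to 0.26 for Bak1 among the GLUT1/3 WT clones and -0.17 to 0.015 for Mcl1 among the dKO clones. The interaction ran from -0.25 to 0.28 for Bcl2l1, -0.17 to 0.092 for Bak1 and -0.28 to 0.11 for Bcl2l11. The cause was not tested.

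With the clone number as a replicate block, 1 member was called for dKO in Jak2WT (Bax, adjusted p = 0.0335, limma), and for the interaction Bax was called (adjusted p = 0.0362) in place of Mcl1 (0.0739). The block changed no other call. The clone number only names a clone, and the deviations of same-numbered clones correlated at -0.25 to 0.15, so the number was not taken to pair them. Leaving out a library leaves 1 clone in its group, which is then assumed to vary like the other groups. Depth limits Bcl2a1b above all, with 11 to 121 reads per library. Bcl2l11 and Bad had 200 or more reads in every library.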
